A study of Homo sapiens with 6 samples.

Results

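Laminins, matrix glycoproteins and proteoglycans were examined in U87, an established human glioma cell line, as a list of 34 genes, all found by symbol among the 57905 gene identifiers of the deposited tables. Of the 34, 31 were abundant enough to be tested, and POSTN, BGN and NID1 were not. The series holds 6 libraries of total RNA. The 3 control libraries carry the genotype label WT and the treatment label no, and the 3 siRBM47 libraries were made from cells given 100 pmol of siRNA against RBM47, an RNA-binding protein. The shared protocol describes a lipid-based siRNA transfection and does not say whether the control cells received a control siRNA, so an effect of transfection and one of RBM47 siRNA cannot be told apart. No label tells whether the replicates came from separate cultures, and a p-value here then reflects library-to-library spread that may be technical.

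The extracellular matrix is built from secreted glycoproteins and proteoglycans that cells assemble outside the membrane. Laminins are trimers of an alpha, a beta and a gamma chain that polymerise into the sheet of basement membranes, where nidogens, perlecan and agrin link them to collagen IV and to cells. Fibronectin, fibrillins and the proteins bound to them form fibres that hold latent TGF-beta, and matricellular proteins such as tenascin C, thrombospondins and SPARC alter how cells attach. In brain, vascular basement membranes are rich in laminins, and glioma cells are known to deposit tenascin C, fibronectin and versican.

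No member passed the threshold between siRBM47 and control libraries, and the members split evenly in direction. Of 31 tested members, 0 had an adjusted p under 0.05 by the edgeR quasi-likelihood test, where 0.22% of all 14578 tested genes did (0.0823% higher, 0.137% lower). DESeq2 and limma-voom also gave 0 members, where they called 4.42% and 0.233% of all genes. An unadjusted p under 0.05 was reached by 5 members, or 16.1% of the 31, against 16.1% of all genes. Of these, 2 were higher (6.45%, against 7.15% of all genes) and 3 lower (9.68%, against 8.94%). The log2 fold change (siRBM47 over control) was positive for 15 members (48.4%, against 48.8% of all genes) and negative for 16, with a median of -0.03 against -0.01 over all tested genes. Every siRBM47 library lay above every control library for 2 members and below for 3, or 6.45% and 9.68% of the members, against 11.6% and 11% of all genes. These shares of the members lay near or under those of the whole table. In such bulk RNA, fewer cells expressing a gene and less of its RNA per cell cannot be told apart.

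**Figure D1:**
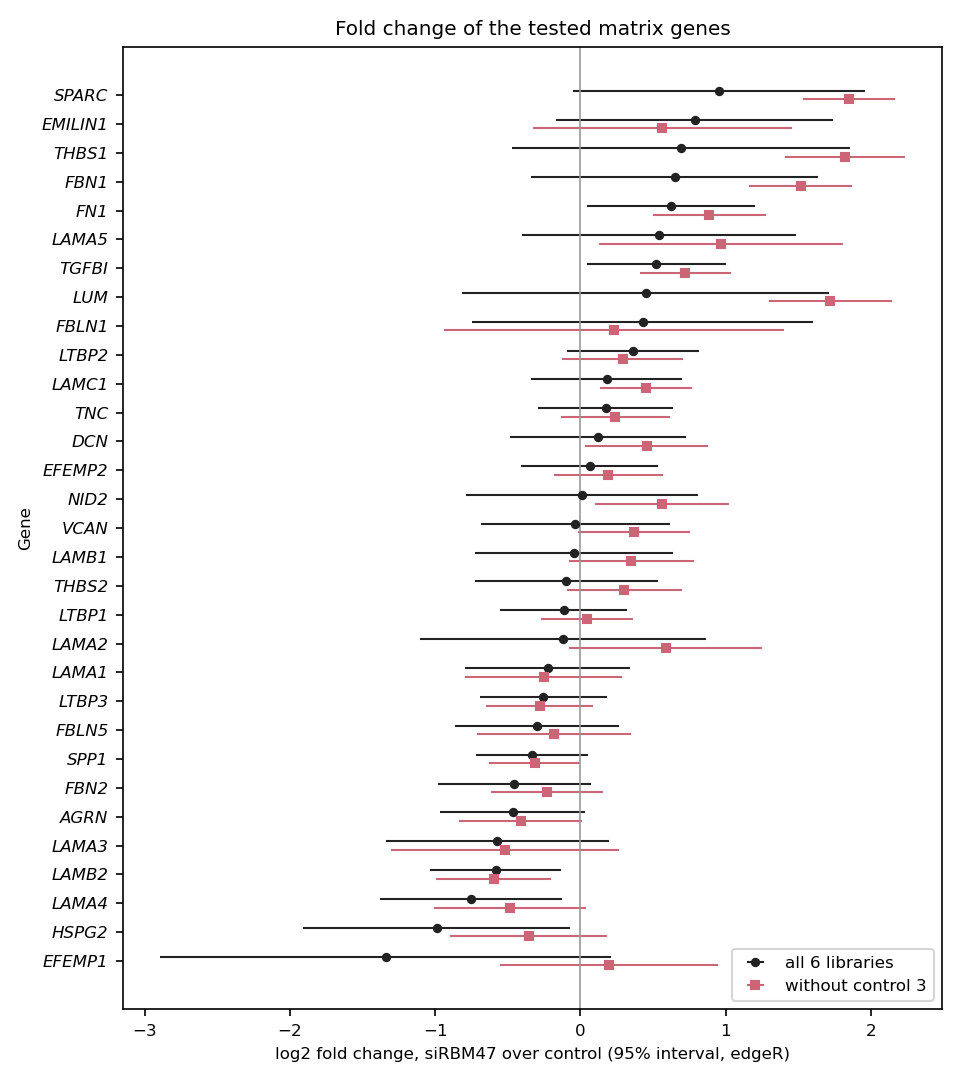
Log2 fold change of each tested matrix gene (siRBM47 over control, horizontal axis) with its 95% interval from edgeR, with all 6 libraries (black circles) and without control replicate 3 (red squares). With all libraries no gene passed the threshold after adjustment; without control replicate 3 the values of SPARC, THBS1, LUM and FBN1 move to between 1.52 and 1.85.

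Control replicate 3 did not resemble the other two control libraries, and most results given here depend on it. Levels are given as CPM, counts scaled to library size with TMM factors. Across genes the log2 CPM of that library correlated at 0.941 and 0.95 with control replicates 1 and 2, which correlated at 0.988 with each other. For control replicate 3 the values were higher against siRBM47 replicates 1, 2 and 3, namely 0.956, 0.959 and 0.962. Total counts per library ran from 15575297 to 18128549. RBM47 itself was at 1.62, 1.73 and 5.75 CPM in the control libraries and at 3.54, 2.74 and 2.23 in the siRBM47 libraries, so siRBM47 libraries were not measurably lower in their target (log2 fold change -0.11, SE 0.50, adjusted p = 0.942, edgeR). Without control replicate 3 the target was higher in siRBM47, as control replicates 1 and 2 lay below every siRBM47 library. The labels are therefore not checked by their target, and groups are named as labelled. Control replicate 3 had the highest CPM of all 6 libraries for 17 of the 31 members (54.8%), against 25.4% of all tested genes. Among the controls alone it was the highest for 23 (74.2%, against 44.9%). It lay at least 2-fold above the mean of control replicates 1 and 2 for 8 members (25.8%) and at least 2-fold below for 0, against 9.95% and 9.23% of all genes. The 8 were LAMA2, FBN1, SPARC, THBS1, LUM, NID2, HSPG2 and EFEMP1. The median difference of that library from the other two controls was 0.68 (log2 CPM) over the members and 0.01 over all tested genes.

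Markers of U87 and of other cells were read in the same libraries. GFAP, the astrocyte filament protein, lay between 0.339 and 1.49 CPM, S100B between 0 and 0.387, and AQP4 was at 0 in all 6 libraries, so these astrocyte markers were absent or near 0. Of the other glioma and astrocyte markers SOX2 lay between 0.474 and 1.60 CPM, OLIG2 between 3.26 and 8.41 and NES between 13.1 and 15.2. CHI3L1 stood at 21.4 and 19.7 CPM in control replicates 1 and 2, at 88.8 in control replicate 3 and at 25.1 to 31.6 in siRBM47. VIM, a filament protein of mesenchymal and glial cells, was the abundant one, at 2831 to 4939 CPM. Of 5 immune markers only CSF1R was tested. It stood at 11.6 and 13.6 CPM in control replicates 1 and 2, at 24.9 in control replicate 3 and at 22.8 to 31.6 in siRBM47, while PTPRC lay at or under 0.0677 CPM and ITGAM at 0 in every library. The summed fibroblast markers (PDGFRA, THY1, COL3A1 and FAP) came to 22.1 and 24.7 CPM in control replicates 1 and 2, to 55.2 in control replicate 3 and to between 39.1 and 45.2 in siRBM47. Among them THY1 was at or under 0.514 CPM in every library and COL3A1 at or under 2.06. FAP, the largest part of the sum, stood at 16.0, 17.0 and 35.7 CPM in the controls and at 29.6 to 38.2 in siRBM47. PDGFRA was high in control replicate 3 only, at 5.69, 7.37 and 17.4 CPM in the controls and 5.69 to 7.76 in siRBM47. The summed pericyte and smooth muscle markers (5 of 5 tested) came to 119 to 129 CPM in the controls and 109 to 155 in siRBM47. One of them, PDGFRB, went from 21.1 and 20.4 CPM in control replicates 1 and 2 to 60.2 in control replicate 3, with 40.9 to 58.7 in siRBM47. CSPG4, the largest part of the sum in most libraries, went the other way in the controls, at 106, 96.3 and 58.4 CPM, with 63.8 to 92.9 in siRBM47. Endothelial markers (4 of 5 found) summed to 12.5 to 16.3 CPM in control and 8.66 to 11.05 in siRBM47, and the lowest was CDH5, at or under 0.0552 CPM. The highest was KDR, at 14.8, 13.7 and 7.98 CPM in control and 5.03 to 6.51 in siRBM47. VWF and TEK did not fall with it. VWF stood at 0.203, 0.345 and 2.98 CPM in control and at 1.20 to 2.54 in siRBM47. TEK stood at 1.29 to 1.84 CPM in control and at 1.66 to 2.43 in siRBM47. The 4 epithelial markers summed to 1.21 to 3.72 CPM in control and 2.06 to 2.98 in siRBM47. The 4 neuronal markers summed to 22.8 to 31.5 and 25.9 to 42.1. No marker of these lists passed the threshold, and their part in the matrix results was not tested.

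Promoter sequence was available for 28 of the 34 members (RefSeq, GRCh38.p14). LAMA1, DCN, LUM, AGRN, EFEMP1 and EMILIN1 were not matched. Shown are parts of 3 promoters that stand for the patterns described next: SPARC and THBS1, which were high in control replicate 3 and in siRBM47, and FN1, the most abundant fibre gene. Each is written 5′ to 3′ on the gene's strand, and only bases outside the gene's own annotated exons are shown, apart from 30 bases of SPARC around a motif. Capitals mark matches on either strand to 5 motifs. They are TATAAA for the core promoter factor TBP, GGGCGG for SP1, CCAAT for the factor NF-Y, TGANTCA for the factor AP-1 and GGAATG for the TEAD factors. In THBS1 an SP1 and an NF-Y motif lie side by side, and in FN1 the SP1 motifs overlap each other.
SPARC: ctaaacccctccaCATTCCcgcggtccttc
THBS1: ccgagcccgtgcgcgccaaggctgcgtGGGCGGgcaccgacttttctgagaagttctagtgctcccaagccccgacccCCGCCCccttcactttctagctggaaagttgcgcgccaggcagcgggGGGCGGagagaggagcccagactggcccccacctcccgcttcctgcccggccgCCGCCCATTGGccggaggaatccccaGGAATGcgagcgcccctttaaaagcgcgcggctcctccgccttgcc
FN1: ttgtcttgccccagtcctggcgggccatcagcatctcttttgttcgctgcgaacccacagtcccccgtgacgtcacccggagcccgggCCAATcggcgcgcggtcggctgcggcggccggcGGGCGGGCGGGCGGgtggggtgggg

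The SPARC stretch is chr5:151686916-151686945 (minus strand), the THBS1 stretch chr15:39580829-39581078 (plus strand) and the FN1 stretch chr2:215436173-215436318 (minus strand). In the 250 bases before the start, the GGAATG motif was found in 5 of the 28 matched members (FBN1, LAMA2, SPARC, THBS1 and THBS2), or 17.9%, and in 11.9% of all 35116 windows of that length. GGGCGG was found in 20 members (71.4%), against 42.6% of all windows. CCAAT was in 7 members (25%, against 32.0%), TATAAA in 3 (10.7%, against 10.7%) and TGANTCA in 2 (7.1%, against 6.6%). A member was counted if any of its windows matched, while the other share is per window (35116 windows of 27305 genes), so the 2 shares are not the same measure. A match describes letters only and is not a bound site.

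Per length, the matricellular and fibre genes were the most abundant members. In deposited FPKM, a level scaled for gene length and library depth, the means over 6 libraries were 672 for TGFBI, 382 for SPARC, 169 for FN1, 118 for TNC and 90.6 for SPP1. TGFBI lay above SPARC and SPARC above FN1 within each library. FN1 and TNC were close in control replicates 1 and 2, at 109 and 112 against 106 and 105 FPKM. TNC and SPP1 changed places between libraries, with 105 and 108 FPKM in control replicate 2. LAMC1 followed at 51.9 FPKM, LTBP1 at 30.9 and EFEMP2 at 24.9. At the low end, the 5 laminin alpha chains, EMILIN1 and FBLN1 had means between 0.123 and 0.652 FPKM.

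**Figure D2:**
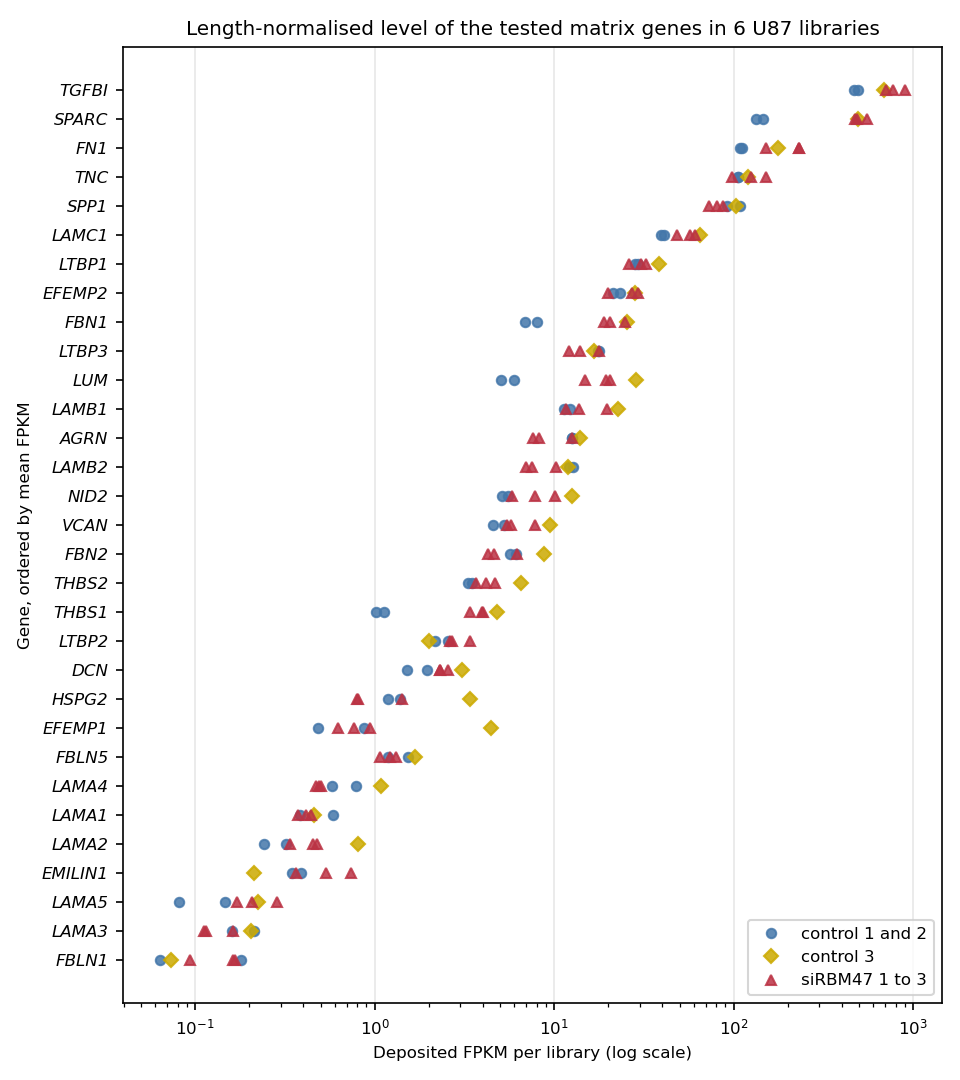
Deposited FPKM (log scale) of the 31 tested matrix genes in each library, ordered by mean level, with control replicates 1 and 2 (blue circles), control replicate 3 (yellow diamonds) and siRBM47 replicates 1 to 3 (red triangles). TGFBI, SPARC, FN1 and TNC were the most abundant, and the alpha laminins lay at or under 1.08 FPKM in every library.

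Among laminin chains, transcripts for beta and gamma chains far outnumbered those for alpha chains. LAMC1, the gamma 1 chain common to most laminins (GRCh38 chromosome 1, 183023460 to 183145592, plus strand, protein-coding), made up 96.7% to 98.7% of gamma chain FPKM in each library. LAMB1, LAMB2 and LAMB3 shared the beta chains, with 40.3% to 64.2%, 24.3% to 45.4% and 11.3% to 19.9% of summed beta FPKM. The alpha chains summed to 1.77, 1.72 and 2.77 FPKM in the control libraries, against 1.71, 1.68 and 1.63 in the siRBM47 libraries. Summed gamma FPKM was 23.0, 24.7 and 23.9 times summed alpha FPKM in the control libraries and 36.2, 34.3 and 30.1 times in the siRBM47 libraries. The groups did not overlap in this ratio, and control replicate 3 lay between the other controls; the ratio was computed after the values were seen and was not tested. Summed beta over summed alpha FPKM, by contrast, overlapped, at 15.8, 16.3 and 15.6 in the control libraries and 18.0, 17.0 and 13.8 in the siRBM47 libraries. LAMA4, the alpha chain of mesenchymal and vessel laminins, had the largest share of alpha FPKM in control replicate 3 (39.0%), as it did in control replicate 1 (44.5%) and in the siRBM47 libraries (28.7% to 29.8%). In control replicate 2 LAMA1 had the largest, at 34.01%.

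**Figure D3:**
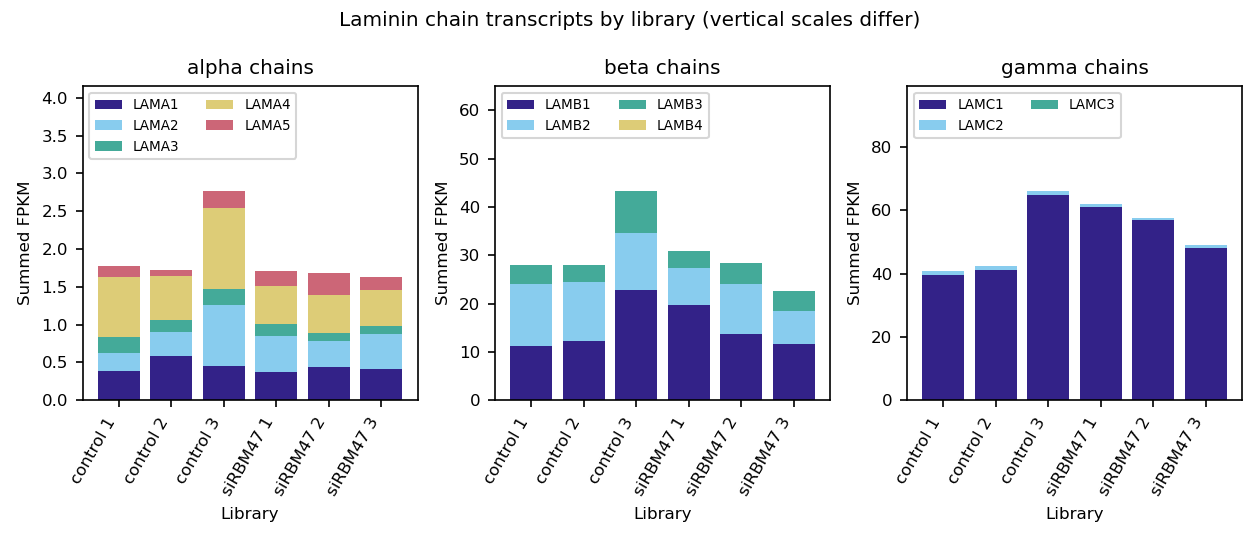
Summed FPKM of laminin alpha, beta and gamma chains in each library, stacked by gene, on vertical scales that differ between panels. Alpha chains sum to between 1.63 and 2.77 FPKM, and gamma chains, nearly all LAMC1, to between 40.7 and 66.2.

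LAMB2, the beta 2 chain of vessel and synaptic basement membranes, was the laminin with the smallest p. It measured 88.1, 84.0 and 83.5 CPM in the controls against 51.5, 71.4 and 47.7 in the siRBM47 libraries. All siRBM47 libraries lay below all controls, and here control replicate 3 resembled the other two. The log2 fold change of siRBM47 over control was -0.58 (95% interval -1.03 to -0.13, SE 0.20, adjusted p = 0.21, edgeR), and without control replicate 3 it was -0.60 (adjusted p = 0.033, edgeR). LAMB2 lies on chromosome 3 (49121114 to 49133118, minus strand).

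LAMA4 had control values of 9.21, 6.73 and 12.7 CPM and siRBM47 values of 5.69, 5.89 and 5.47. The groups did not overlap, and the controls spread more than the siRBM47 libraries. The log2 fold change was -0.75 (SE 0.28, adjusted p = 0.239, edgeR); leaving out control replicate 3 gave -0.48 (adjusted p = 0.169, edgeR). LAMC1 measured 335, 349 and 554 CPM in the controls against 514, 486 and 406 in the siRBM47 libraries, with control replicate 3 the highest. Its log2 fold change was 0.18 (SE 0.23, adjusted p = 0.74, edgeR); leaving out that library gave 0.45 (SE 0.15, adjusted p = 0.0432, edgeR). LAMB1 had control values of 92.7, 101 and 188 CPM and siRBM47 values of 161, 114 and 94.8, so the groups overlapped throughout (-0.045, SE 0.30, adjusted p = 0.959, edgeR).

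The other alpha chains were of low abundance. LAMA1, the alpha chain of early embryonic laminin, had 91 to 163 counts per library and a log2 fold change of -0.22 (SE 0.25). LAMA2, the muscle and nerve alpha chain, had 154 counts in control replicate 3 and 36 to 87 elsewhere, with a log2 fold change of -0.12 (SE 0.44) that turned to 0.59 (SE 0.31) without that library. LAMA3, the alpha chain of epithelial laminin, had 27 to 53 counts (-0.57, SE 0.34), and LAMA5 had 21 to 75 (0.54, SE 0.42). In LAMA1, 11.1% of the exon length lies opposite exons of other genes, whose reads the library kit named in the labels does not tell apart. None of the 4 passed the threshold (adjusted p of 0.45 to 0.924, edgeR).

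Of the genes that link laminin sheets, AGRN, the heparan sulphate proteoglycan agrin, measured 136, 136 and 152 CPM in the controls against 88.5, 137 and 82.3 in the siRBM47 libraries. Replicate 2 of siRBM47 lay among the controls, and the other two below them (-0.47, SE 0.22, adjusted p = 0.344, edgeR). HSPG2, which encodes perlecan, had control values of 21.1, 24.8 and 60.8 CPM and siRBM47 values of 14.1, 25.5 and 14.3. Its log2 fold change was -0.99 (SE 0.41, adjusted p = 0.277, edgeR) with control replicate 3, the highest library, and -0.36 (SE 0.25) when that library was left out. The gene LDLRAD2 lies opposite 11.7% of the HSPG2 exon length. NID2, the nidogen 2 linker, measured 32.0, 34.4 and 79.1 CPM in the controls against 62.3, 49.0 and 35.7 in the siRBM47 libraries (0.014, SE 0.36), and 29.96% of its exons by length lie opposite exons of RTRAF. NID1 had 8, 19 and 17 counts in control and 8, 9 and 5 in siRBM47 and was not tested.

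Among fibre genes, FN1, which encodes fibronectin (chromosome 2, 215360440 to 215436172, minus strand), had control values of 1908, 1949 and 3098 CPM and siRBM47 values of 4025, 4059 and 2636. Control replicate 3 lay above siRBM47 replicate 3, so the groups overlapped by 1 library. The means were 2318 ± 676 and 3573 ± 812 CPM (SD, n = 3 each), with a log2 fold change of 0.62 (SE 0.26, 95% interval 0.04 to 1.20, adjusted p = 0.277, edgeR). Without control replicate 3 it was 0.89 (SE 0.18, adjusted p = 0.00399, edgeR).

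FBN1, the microfibril protein fibrillin 1 (chromosome 15, 48408306 to 48645849, minus strand), measured 111, 130 and 418 CPM in the controls against 399, 333 and 303 in the siRBM47 libraries. Control replicate 3 was the highest of the 6, and the other two controls lay below all siRBM47 libraries. With all libraries the log2 fold change of siRBM47 over control was 0.65 (95% interval -0.34 to 1.64, SE 0.44, adjusted p = 0.505, edgeR), and without control replicate 3 it was 1.52 (SE 0.17, adjusted p = 5.59e-05, edgeR). Its relative FBN2, a fibrillin of developing tissue, had control values of 75.6, 81.2 and 118 CPM and siRBM47 values of 82.3, 61.9 and 56.6 (-0.45, SE 0.23, adjusted p = 0.381, edgeR). Both fibrillins were highest in control replicate 3, and their log2 fold changes had opposite signs in either fit.

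SPARC, a collagen-binding matricellular protein (chromosome 5, 151661096 to 151687165, minus strand), had the largest positive log2 fold change of the tested members. It measured 651, 711 and 2434 CPM in the controls against 2364, 2713 and 2290 in the siRBM47 libraries. Control replicate 3 lay within the siRBM47 range, at 3.57 times the mean of control replicates 1 and 2, while the siRBM47 mean was 3.61 times it. With all libraries the log2 fold change of siRBM47 over control was 0.96 (95% interval -0.05 to 1.96, SE 0.45, adjusted p = 0.333, edgeR), and without control replicate 3 it was 1.85 (SE 0.15, adjusted p = 5.14e-06, edgeR). The gene CLMAT3 lies opposite 7.89% of the SPARC exon length.

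THBS1, which encodes thrombospondin 1, an activator of latent TGF-beta (chromosome 15, 39581079 to 39599466, plus strand), had its libraries in a like order. It had control values of 11.1, 12.3 and 53.4 CPM and siRBM47 values of 43.1, 44.4 and 36.8. Control replicate 3 was again the highest library. The log2 fold change was 0.69 (SE 0.52, adjusted p = 0.548, edgeR); leaving out control replicate 3 gave 1.82 (SE 0.19, adjusted p = 3.98e-05, edgeR). Its relative THBS2 measured 22.4, 21.2 and 42.6 CPM in the controls against 29.9, 27.3 and 23.6 in the siRBM47 libraries (-0.10, SE 0.28); leaving out that library gave 0.30 (SE 0.19, adjusted p = 0.259, edgeR).

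TGFBI, a TGF-beta-induced protein that binds integrins and collagens (chromosome 5, 136028895 to 136063818, plus strand), was the abundant member whose groups did not overlap upwards. It had control values of 3707, 3896 and 5478 CPM and siRBM47 values of 6064, 7165 and 5577. Control replicate 3 lay close under siRBM47 replicate 3. The means were 4360 ± 973 and 6269 ± 813 CPM (SD, n = 3 each), a log2 fold change of 0.52 (SE 0.21, 95% interval 0.043 to 1.004, adjusted p = 0.274, edgeR); leaving out control replicate 3 gave 0.72 (SE 0.15, adjusted p = 0.00385, edgeR).

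**Figure D4:**
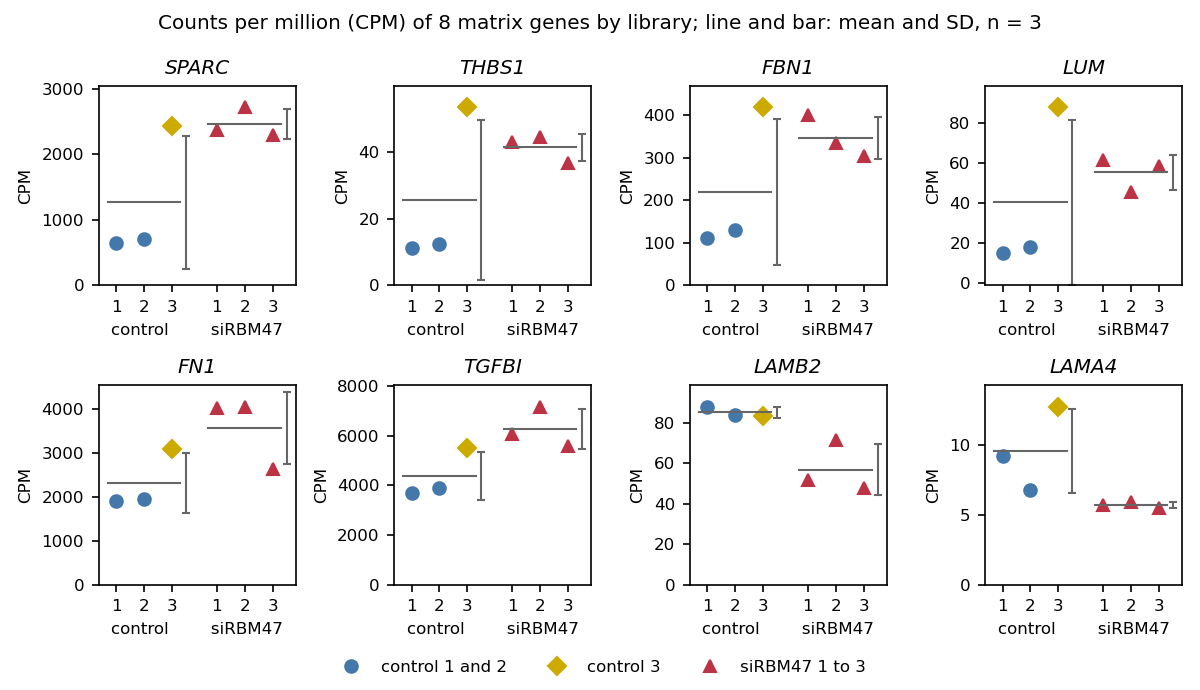
Level in CPM (vertical axis, scales differ) of 8 matrix genes in each library, with the mean (line) and SD (bar) of each group of 3. In SPARC, THBS1, FBN1 and LUM control replicate 3 lies far above the other controls, in FN1 and TGFBI it lies between them and the highest siRBM47 library, in LAMB2 it lies with the other controls, and in LAMA4 it is the highest of all.

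TNC, the anti-adhesive glycoprotein tenascin C, measured 932, 922 and 1062 CPM in the controls against 1095, 1341 and 854 in the siRBM47 libraries (0.17, SE 0.21, adjusted p = 0.723, edgeR). The siRBM47 libraries enclosed the controls. SPP1, which encodes osteopontin, an integrin ligand, had control values of 211, 250 and 239 CPM and siRBM47 values of 199, 171 and 186. All siRBM47 libraries lay below all controls, by a log2 fold change of -0.33 (SE 0.17, adjusted p = 0.379, edgeR). POSTN, the gene of periostin, had 0 to 2 counts per library, and a count of 0 allows up to 0.203 CPM in the shallowest library, for counting error only.

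Among the chondroitin, dermatan and keratan sulphate proteoglycans of the list, LUM, the keratan sulphate proteoglycan lumican that binds collagen fibrils (chromosome 12, 91102629 to 91111831, minus strand), had the highest mean FPKM, at 15.8. It measured 15.4, 18.2 and 87.9 CPM in the controls against 61.8, 45.7 and 58.8 in the siRBM47 libraries. Control replicate 3, at 5.24 times the mean of the other controls, was the highest library. The log2 fold change of siRBM47 over control was 0.45 (95% interval -0.82 to 1.72, SE 0.56, adjusted p = 0.74, edgeR); leaving out that library gave 1.72 (SE 0.20, adjusted p = 8.02e-05, edgeR). DCN, the gene of decorin and near LUM on chromosome 12 (91140484 to 91183123), had control values of 12.3, 15.9 and 25.2 CPM and siRBM47 values of 18.6, 18.9 and 20.6 (0.12, SE 0.27). VCAN, the large chondroitin sulphate proteoglycan versican, measured 68.3, 78.4 and 144 CPM in the controls against 116, 82.4 and 85.4 in the siRBM47 libraries (-0.033, SE 0.29). BGN, the gene of biglycan, had 2, 2 and 5 counts in control and 12, 7 and 14 in siRBM47, too few to be tested.

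Of the tested members an elastic fibre gene stood out most in control replicate 3. EFEMP1, which encodes fibulin 3, had control values of 3.72, 2.07 and 19.2 CPM and siRBM47 values of 3.98, 2.69 and 3.24. That library stood at 6.63 times the mean of the other controls, while the siRBM47 libraries resembled control replicates 1 and 2. The log2 fold change was -1.34 (SE 0.69, adjusted p = 0.38, edgeR) with all libraries, and 0.20 with an SE of 0.35 (adjusted p = 0.721, edgeR) once control replicate 3 was left out. EFEMP2, which encodes fibulin 4, a protein needed to cross-link elastin, measured 116, 126 and 155 CPM in the controls against 108, 160 and 148 in the siRBM47 libraries (0.064, SE 0.21). FBLN5 had 95 to 159 counts (-0.30, SE 0.25), FBLN1 8 to 21 (0.43, SE 0.52) and EMILIN1 16 to 52 (0.79, SE 0.43), and none passed (adjusted p of 0.403 to 0.731, edgeR).

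The proteins that bind latent TGF-beta to fibrillin fibres showed small differences. LTBP1 had control values of 218, 208 and 287 CPM and siRBM47 values of 239, 228 and 192 (-0.11, SE 0.19), with overlapping groups. LTBP2 measured 24.1, 20.4 and 19.0 CPM in the controls against 25.3, 31.9 and 24.4 in the siRBM47 libraries, groups that just did not overlap (0.36, SE 0.20, adjusted p = 0.423, edgeR). LTBP3 had control values of 182, 186 and 174 CPM and siRBM47 values of 125, 187 and 144 (-0.25, SE 0.19). Outside the members, and named after its values were seen, LTBP4 measured 107, 93.6 and 88.4 CPM in the controls against 28.9, 48.1 and 30.3 in the siRBM47 libraries, with groups that did not overlap. Its log2 fold change of -1.43 (SE 0.23, adjusted p = 0.0522, edgeR) missed the threshold, and without control replicate 3 it was -1.49 (adjusted p = 0.000371, edgeR).

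The 73 other genes of these families (further laminins, fibre, matricellular and proteoglycan genes, laminin and hyaluronan receptors and glycosaminoglycan enzymes) gave no calls by edgeR either. Of 55 tested, edgeR called 0, DESeq2 3 (LTBP4, LRP1 and XYLT2, all lower) and limma-voom 1 (LTBP4). The last 2 counts are 5.45% and 1.82% of the 55, against 4.42% and 0.233% of all genes. An unadjusted p under 0.05 was found for 9 (16.4%, against 16.1% of all genes), and the median log2 fold change was -0.14. The most abundant of them per length were the syndecan SDC4 (119.5 FPKM), SRPX (104), the hyaluronan receptor CD44 (75.6), the small proteoglycan serglycin SRGN (73.7), IGFBP7 (61.8) and the chondroitin synthesis gene CHPF (55.5). Their log2 fold changes were -0.075 (SE 0.19), -0.17 (SE 0.20), -0.12 (SE 0.20), -0.25 (SE 0.24), 0.44 (SE 0.29) and -0.28 (SE 0.23) in that order. IGFBP7, which codes for a secreted vessel-matrix protein, had control values of 70.1, 80.8 and 156 CPM and siRBM47 values of 146, 148 and 122, with control replicate 3 the highest.

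LRP1 and XYLT2 were, like LTBP4, named after their values were seen. LRP1, an endocytic receptor that clears matrix proteins and thrombospondins, measured 373, 381 and 356 CPM in the controls against 181, 288 and 183 in the siRBM47 libraries. XYLT2, a xylosyltransferase that starts glycosaminoglycan chains, had control values of 75.8, 75.2 and 67.4 CPM and siRBM47 values of 30.5, 50.5 and 35.0. In both, all siRBM47 libraries lay below all controls and control replicate 3 was near the other controls. The log2 fold changes were -0.77 (SE 0.22) and -0.91 (SE 0.22), with adjusted p = 0.145 and 0.106 by edgeR and 0.0384 and 0.0111 by DESeq2. Leaving out control replicate 3, edgeR called 19 of the 55, 14 higher (25.5%, against 10.1% of all genes) and 5 lower (9.09%, against 11.3%). The lower ones were LTBP4, LRP1, XYLT2, ESM1 and HAS3. The higher ones were MFAP4, MFAP5, HMCN1, MATN2, SPOCK1, CCN2, CCN4, IGFBP7, SRPX2, GPC6, SDC2, NDST1, CHST3 and DSE. Of these, CCN4, MATN2 and MFAP4 had the largest log2 fold changes in that fit, and that of MFAP4 was 2.05. With all libraries MFAP4 had 1.25 (SE 0.43, adjusted p = 0.208, edgeR), and all its siRBM47 libraries lay above all controls.

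Without control replicate 3, 7 of 31 members were higher and 1 lower by edgeR (22.6% and 3.23%), against 10.1% and 11.3% of all genes. The 7 were SPARC, THBS1, LUM, FBN1, FN1, TGFBI and LAMC1, and the lower one was LAMB2. Control replicate 3 was singled out with earlier results of these data known, and it lay above control replicates 1 and 2 in all 7. Leaving it out therefore raises their log2 fold changes, and these shares are not independent of that choice. The median log2 fold change of the 31 was then 0.29, against 0.02 over all tested genes. That fit sets control replicates 1 and 2, whose counts differed least of all pairs within a group (chi-square per degree of freedom 10.7, against 15.1 to 145), against the siRBM47 libraries. For SPARC, THBS1, FBN1 and LUM the siRBM47 means were 3.61, 3.54, 2.86 and 3.30 times the mean of control replicates 1 and 2, and control replicate 3 was 3.57, 4.56, 3.46 and 5.24 times that mean. Both sets of ratios share control replicates 1 and 2. In THBS1, FBN1 and LUM control replicate 3 exceeded every siRBM47 library, and in SPARC it lay within their range.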

How the data were processed

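Groups and replicate numbers of the 6 libraries (3 control, 3 siRBM47) came from the sample titles. The deposited tables give each gene a whole-number count and an FPKM, per the file headers. HISAT2 2.0.5, featureCounts 1.5.0-p3 and hg38 are named per the submitters' processing notes, while annotation release, strand setting and read filters are each not given in the sources used here. Deposited FPKM served for levels between genes and entered no test.

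Gene symbols were looked up by identifier (5909 of 57905 had none, 385 of those tested) and positions from GENCODE 29. Genes kept by filterByExpr (minimum count 10) were tested on the deposited counts with edgeR 4.0.16 in R 4.3.3 (TMM factors, quasi-likelihood, no block). P-values were adjusted over 14578 genes by Benjamini-Hochberg, at a threshold of 0.05. SE is the size of the log2 fold change divided by the root of F. CPM use TMM-scaled sizes, and log2 CPM a prior count of 2.

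Alternatives were RLE and upper quartile factors, DESeq2 1.42.0, limma-voom (limma 3.58.1) with and without quality weights, no filter, a stricter minimum of 50, the replicate number as a block, and leaving out 1 library at a time with the tested genes kept. The edgeR step was tested on simulated data. Chi-square values of the counts of each pair within a group (at least 20 counts in a pair) found no library repeated within a group. Pairs across the groups were not compared in this way. Full values are given for members called with all libraries or without control replicate 3 and for the most abundant member of each class. Other matrix genes are named when called, otherwise the 6 with the highest mean FPKM. Members, lists and motifs, and control replicate 3 as the library looked at apart, were chosen with earlier results of these data known.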

Additional observations from a re-analysis of the deposited data

How the results depend on the processing

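RLE or upper quartile factors and a minimum count of 50 left the members called at 0 and turned no member's sign, and no setting moved the median of all genes by over 0.014 (log2). Over all genes, 32 were called by edgeR with all libraries, 644 by DESeq2, 5880 by limma-voom with quality weights, 804 without a filter, and 0 to 3117 with 1 library left out. Leaving out control replicate 3 gave the 3117, control replicate 2 gave 12, control replicate 1 gave 19, and any siRBM47 library 0 (edgeR; 1445 to 1816 at an unadjusted p under 0.05). Members called were 13 with quality weights, 3 without a filter (SPARC at 0.97, HSPG2 at -0.98 and EFEMP1 at -1.32) and 0 to 8 with 1 library left out. Quality weights ran from 0.134 (control replicate 3) to 4.29 (control replicate 2). Of the other matrix genes DESeq2 called 3, limma-voom 1, quality weights 28, no filter 7 and a minimum count of 50 called 1, and leaving out 1 library gave 0 to 19. LTBP4 was called by limma-voom and at a minimum count of 50 (adjusted p = 0.0454 and 0.0482). The cause was not tested.

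Some members with small or 1-library differences changed sign. With 1 library left out, log2 fold changes ran from -0.41 to 0.59 (LAMA2), -0.29 to 0.35 (LAMB1), -0.26 to 0.30 (THBS2), -0.073 to 0.46 (DCN), -0.22 to 0.37 (VCAN), -0.20 to 0.56 (NID2), -1.78 to 0.20 (EFEMP1), -0.038 to 0.21 (EFEMP2) and -0.19 to 0.045 (LTBP1). The highest came without control replicate 3, except for EFEMP2 (without siRBM47 replicate 1). Quality weights gave 0.43 (LAMA2), 0.080 (LAMB1), 0.21 (THBS2), 0.17 (VCAN) and 0.29 (EFEMP1), and limma-voom 0.040 (LAMA2) and 0.026 (VCAN).

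With the replicate number as a block, edgeR called 39 genes and 0 members, and values became 0.047 (LAMA2), 0.0013 (LAMB1) and 0.029 (VCAN). Deviations of same-numbered libraries correlated at -0.04, 0.13 and 0.12, and control replicate 1 correlated best with siRBM47 replicate 2 (0.20). With so few libraries per group, these values cannot tell whether same-numbered libraries were made together, and the labels do not say. Depth limits FBLN1, EMILIN1, NID1, BGN and POSTN, which had at most 52 counts in any library.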
